A study of Mus musculus with 6 samples.

Results

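Rarres2, Hic1, Stk39, Usp53, Rarres1 and Zfp703 are 6 mouse genes outside the enzymes and binding proteins of retinoid metabolism. They were picked because they are named for a response to retinoids or because they differed strongly between the libraries described here, so their values are given as a description and without a test. All 6 were among the 11773 genes of the deposited gene table, and 14 of their transcripts were among the 22330 of the transcript table. RNA was measured in 2H11, an established mouse line of C3H/HeJ origin; the labels call it endothelial and give the axillary lymph node as its source. Cells were starved, and 3 libraries were made after 48 h with bone morphogenetic protein 4 (BMP4). The other 3 were made after 48 h with BMP4 and palovarotene, a synthetic agonist of the retinoic acid receptor gamma. BMP4 was present in both groups and no group lacked it, so every value describes the retinoid on top of BMP4. Nothing in the labels says that libraries of a group stem from independent cultures. The p-values therefore set the group difference against the scatter between libraries, which may be only technical.

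Retinoic acid receptors sit on DNA as heterodimers with retinoid X receptors, at pairs of a short half-site, and switch from repressing to activating nearby genes when a retinoid binds. Rarres2 encodes chemerin, a secreted attractant of immune cells and an adipokine that proteases activate by trimming its end. Rarres1 encodes a membrane protein related to latexin. In human skin both were found as genes that the retinoid tazarotene raises, which gave them their names. Hic1 encodes a zinc finger repressor that marks quiescent mesenchymal progenitors in mouse tissues. Zfp703 encodes a nuclear co-repressor, Stk39 the kinase SPAK of the WNK pathway, and Usp53 a member of the ubiquitin-specific protease family found at tight junctions.

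Of the 6 genes, 4 lay far higher with palovarotene and the remaining pair moderately lower. Levels are FPKM, fragments scaled to the length of the gene and to the size of the library. As ratios of mean FPKM, Rarres2 was 21.6 times, Hic1 13.8 times, Usp53 10.5 times and Stk39 9.92 times as high as with BMP4 alone. Rarres1 was 1.47 times and Zfp703 1.46 times as high with BMP4 alone as with palovarotene. In none of the 6 genes did the 3 values of a group overlap those of the other group. Groups were also apart in 54.9% of the 11584 genes tested (those averaging 0.5 FPKM or more), and the 6 genes were chosen on this contrast, so nothing is read from that count. Ordered by the difference of mean log2(FPKM + 1) from the highest, Rarres2 took rank 10, Hic1 rank 11, Usp53 rank 17 and Stk39 rank 19. Counted from the lowest difference, Zfp703 took rank 750 and Rarres1 rank 995. The median over all tested genes was -0.03, and the median absolute difference was 0.18.

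**Figure D1:**
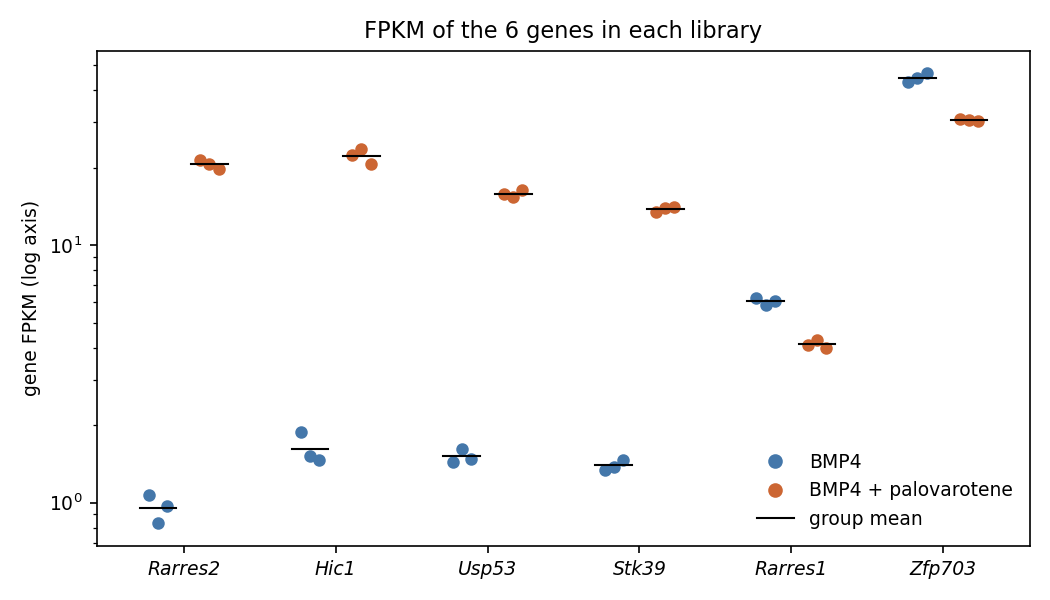
Gene FPKM on a log axis for each of the 6 genes, with 1 point per library, by group, and a line at the group mean. Rarres2, Hic1, Stk39 and Usp53 lie between 0.833 and 1.88 with BMP4 and between 13.5 and 23.6 with palovarotene, while Rarres1 and Zfp703 lie lower with palovarotene.

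The 6 libraries were alike in scale, with listed genes summing to between 244119 and 251290 FPKM. Pearson correlations over log2(FPKM + 1) were 0.988 to 0.991 within BMP4, 0.992 to 0.993 within palovarotene and 0.954 to 0.959 between groups. FPKM hold no counts and the depth of the libraries is unknown. Of 12 endothelial markers, only Tek, Flt1, Vwf and Egfl7 were listed; Pecam1, Cdh5, Kdr, Tie1, Emcn, Erg, Cldn5 and Esam were not. Summed over the 4 listed ones, the BMP4 libraries held 8.02 to 8.34 FPKM and the palovarotene libraries 3.05 to 3.39 FPKM. All 10 mesenchymal markers were listed, at 1180 to 1277 and at 1227 to 1282 FPKM in sum, of which Col1a1 alone made up 523 ± 32.9 and 684 ± 25.2 FPKM. With limma and Benjamini-Hochberg adjustment over all tested genes, 43.0% of the table passed an adjusted p of 0.05, 19.1% higher and 23.8% lower with palovarotene. Of the 10 mesenchymal markers, 2 rose (Pdgfra and Col1a1) and 6 fell (Acta2, Tagln, Pdgfrb, Thy1, Twist1 and Prrx1), with a median log2 difference of -0.38. Of the 4 listed endothelial markers, Tek, Flt1 and Vwf fell. Egfl7 did not pass, at 1.20 ± 0.116 and 1.22 ± 0.228 FPKM (limma adjusted p = 0.977). Of 6 leukocyte markers, Cd68 and Cd14 were listed and held 16.6 to 17.8 and 10.1 to 11.1 FPKM in sum. Of 6 epithelial markers Krt19 was listed, at 9.06 to 11.2 and at 31.3 to 32.4 FPKM. The part of these shifts in the results was not tested, and fewer cells expressing a gene cannot be told apart from less RNA per cell.

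Chemerin showed the largest of the 6 differences. Rarres2 (ENSMUSG00000009281.6) covers chr6:48569696-48572789 on the minus strand of GRCm38. Its level was 1.07, 0.833 and 0.973 FPKM in the BMP4 libraries and 21.5, 20.7 and 19.8 FPKM in the palovarotene libraries. The lowest palovarotene library was 18.6 times the highest BMP4 library. The means were 0.958 ± 0.118 and 20.7 ± 0.840 FPKM (SD, n = 3 each), a difference of 3.47 (SE 0.0600) on the log2(FPKM + 1) scale. With BMP4 alone Rarres2 stood above 6.38% of the tested genes, near the bottom of the table, and with palovarotene above 76.9%. Its last exons overlap Lrrc61, a gene on the opposite strand that was not listed. The sources used here do not give whether strand was used in counting, and fragments of both genes may be mixed.

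The 4 listed Rarres2 transcripts have 6 exons each and differ in their ends and in the start of coding exon 4. Rarres2-201 and Rarres2-203 (489 coding bases) begin that exon with 3 bases that Rarres2-204 and Rarres2-205 (486 coding bases) lack. The stretches below show this difference, read from the GENCODE annotation on GRCm38 with 18 bases on either side; capitals mark the extra codon, which starts at coding base 382, and the coding exon covers chr6:48569955-48570062 in the longer form.
Rarres2-201 and Rarres2-203: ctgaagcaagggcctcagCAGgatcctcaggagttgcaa
Rarres2-204 and Rarres2-205: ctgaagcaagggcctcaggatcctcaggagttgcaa
Both forms were higher with palovarotene, the shorter one by more. Transcripts without the codon amounted to 1.39, 1.17 and 2.83 FPKM in the BMP4 libraries and 50.6, 46.0 and 41.9 FPKM in the palovarotene libraries, a ratio of means of 25.7. Transcripts with it amounted to 2.01, 1.73 and 0.729 FPKM and 17.9, 18.8 and 19.0 FPKM, a ratio of 12.5. The share without the codon was 68.8% to 73.9% with palovarotene, but it was 40.3% to 79.5% with BMP4 alone. The BMP4 library of replicate 3, at 79.5%, lay above all palovarotene libraries, so the shares of the groups overlapped.

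Rarres2-204 carried most of the signal with palovarotene, 63.0% ± 4.94 of the listed Rarres2 transcripts. It was 1.30, 1.12 and 0.818 FPKM with BMP4 and 43.9, 37.3 and 41.0 FPKM with palovarotene, a log2 difference of 4.33 (SE 0.119). Rarres2-201 had 0.191, 0.114 and 0.474 FPKM against 9.61, 13.3 and 12.4 FPKM. Rarres2-203 had 1.82, 1.62 and 0.255 FPKM against 8.25, 5.56 and 6.64 FPKM. For these 3 transcripts the groups were apart. Rarres2-205 had 0.0952, 0.0515 and 2.01 FPKM against 6.72, 8.71 and 0.950 FPKM, and its groups overlapped. The gene value was only 0.274 to 0.325 of the sum of its listed transcripts, so the gene and transcript scales of the authors are not interchangeable here; by transcript sums the ratio was 19.7, close to that of the gene values.

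Around chemerin, genes of its receptors and of the proteases that cut it were examined as a list of 16, of which 5 were listed and tested. By limma, 2 of the 5 rose and 1 fell, with a median log2 difference of 0.07. Plau, the urokinase that activates plasminogen, rose from 21.6 ± 1.67 to 49.3 ± 1.13 FPKM (log2 difference 1.15, SE 0.0596, limma adjusted p = 1.23e-05). Ctsl, the protease cathepsin L, rose by 0.23 (adjusted p = 0.00332) and Ctsk, cathepsin K, fell by 0.68 (adjusted p = 0.000562) in the same limma fit. Cmklr1, the signalling receptor of chemerin, was 10.4 ± 0.597 and 10.9 ± 0.280 FPKM (limma adjusted p = 0.359). Plat, the tissue plasminogen activator, was 23.0 ± 0.299 and 22.7 ± 0.196 FPKM (limma adjusted p = 0.728). The other receptors Gpr1 and Ccrl2 were not listed, nor were Plg, Elane, Ctsg, Ctss, Cma1, Klk7, Cpn1, Cpb2 and F2.

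Rarres1, which shares its name with chemerin, went the other way. Rarres1 (ENSMUSG00000049404.7) covers chr3:67478972-67515523 on the minus strand and has 1 annotated transcript, with 6 exons and 849 coding bases. It was 6.25, 5.85 and 6.06 FPKM with BMP4 and 4.09, 4.29 and 4.0 FPKM with palovarotene. The lowest BMP4 library was 1.36 times the highest palovarotene library. The means were 6.05 ± 0.198 and 4.13 ± 0.15 FPKM, a log2 difference of -0.46 (SE 0.0336). Rarres1 moved from above 41.9% of the tested genes to above 31.9%.

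The RefSeq window around the start of Rarres1 (250 bases before to 50 after, build GRCm38.p6, minus strand, chr3:67515474-67515773) is set on the first base of the listed transcript. It is shown because it holds a half-site that retinoic acid receptors can bind. The search covered the half-site AGGTCA, its variant GGGTCA, the further variant AGTTCA and the last variant GGTTCA, on both strands, and capitals mark the match, GGGTCA on the reverse strand, 82 bases before the start.
Rarres1: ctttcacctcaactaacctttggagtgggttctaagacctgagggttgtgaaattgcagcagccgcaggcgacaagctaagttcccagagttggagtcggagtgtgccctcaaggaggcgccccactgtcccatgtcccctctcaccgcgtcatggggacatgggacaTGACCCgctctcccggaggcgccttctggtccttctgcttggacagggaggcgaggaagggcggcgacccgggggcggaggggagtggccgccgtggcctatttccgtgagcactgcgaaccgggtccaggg
Such matches are frequent. Of 32841 promoter windows of the same length, 43.7% hold at least 1 of the 4 letter strings and 13.7% hold GGGTCA. No pair of half-sites in direct repeat with 1, 2 or 5 bases between them lay in the window; pairs with 5 bases between them occur in 0.0974% of all windows. Windows were at hand for 3 of the 6 genes; Rarres2, Zfp703 and Usp53 had none.

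Of 12 genes around Rarres1, namely its relative latexin, carboxypeptidases and the enzymes that remove or restore the end tyrosine of tubulin, 6 were listed and tested. By limma 2 rose and 1 fell, with a median log2 difference of -0.05. Lxn, which encodes latexin, an inhibitor of carboxypeptidase A, was 112, 112 and 119 FPKM with BMP4 and 34.9, 34.3 and 31.8 FPKM with palovarotene. It fell by 1.74 on the log2 scale (SE 0.0499, limma adjusted p = 1.03e-06) and thus went the same way as Rarres1. Vash1, a tubulin tyrosine carboxypeptidase, rose from 0.898 ± 0.0566 to 2.50 ± 0.122 FPKM (limma adjusted p = 2.64e-05). Ttl, the ligase for the opposite reaction, rose by 0.47 (limma adjusted p = 0.000493). Vash2, Svbp and Mapre1 did not pass, with limma adjusted p of 0.856, 0.586 and 0.465.

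Hic1 (ENSMUSG00000043099.4) covers chr11:75164565-75169519 on the minus strand. This repressor was 1.88, 1.52 and 1.46 FPKM with BMP4 and 22.4, 23.6 and 20.8 FPKM with palovarotene. The lowest palovarotene library was 11.1 times the highest BMP4 library. The means were 1.62 ± 0.226 and 22.3 ± 1.42 FPKM, a log2 difference of 3.15 (SE 0.0870). It stood above 13.1% of the tested genes with BMP4 and above 78.5% with palovarotene, the highest such standing among the 4 genes that were higher. Its single listed transcript, Hic1-201, with 2 exons and 2679 coding bases, was 1.98, 1.60 and 1.5 FPKM against 23.0, 24.2 and 21.4 FPKM, and the gene value was 0.947 to 0.975 of the transcript value.

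RefSeq gives Hic1 a pair of start sites other than that of Hic1-201. The windows are shown because each holds 1 half-site, GGGTCA on the forward strand of the gene, in capitals. The first, chr11:75168103-75168402 on the minus strand of GRCm38.p6, has its start 1367 bases downstream of the start of Hic1-201 and the half-site 153 bases before its own start. The other, chr11:75170206-75170505, has its start 736 bases upstream of that of Hic1-201 and the half-site 84 bases before its own start.
Hic1, downstream start: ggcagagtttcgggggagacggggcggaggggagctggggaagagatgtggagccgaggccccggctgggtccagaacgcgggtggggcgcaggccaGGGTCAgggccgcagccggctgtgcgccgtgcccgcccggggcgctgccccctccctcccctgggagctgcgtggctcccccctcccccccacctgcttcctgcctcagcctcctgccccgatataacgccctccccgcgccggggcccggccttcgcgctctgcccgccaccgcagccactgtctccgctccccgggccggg
Hic1, upstream start: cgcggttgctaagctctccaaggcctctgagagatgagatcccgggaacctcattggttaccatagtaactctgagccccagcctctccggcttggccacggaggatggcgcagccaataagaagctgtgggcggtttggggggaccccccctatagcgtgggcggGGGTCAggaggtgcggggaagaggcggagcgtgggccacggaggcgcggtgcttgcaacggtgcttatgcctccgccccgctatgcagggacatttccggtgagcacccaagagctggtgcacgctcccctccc
The downstream window has a GC content of 77.3% with 29 CpG, higher in GC than 97.8% of all windows; the upstream one has 64.7% with 20 CpG. The median of all windows is 52.7% with 7 CpG. Neither window holds a direct repeat of the half-sites with 1, 2 or 5 bases between them, and the half-sites are as frequent in other promoters as given for Rarres1.

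All 16 genes of the Hic1 list, its paralogue, co-repressors, partners and targets reported mostly for human HIC1, were tested. By limma 4 rose and 7 fell, with a median log2 difference of -0.12. Among the reported repression targets, Ccnd1, the gene of cyclin D1, fell from 14.2 ± 0.196 to 6.71 ± 0.319 FPKM (log2 difference -0.98, limma adjusted p = 1.12e-05). Sox9, a cartilage transcription factor, fell by 0.71 (limma adjusted p = 8.46e-05). Sirt1, a deacetylase, went from 4.68 ± 0.389 to 3.61 ± 0.229 FPKM (limma adjusted p = 0.0134). The targets did not go one way. Epha2, an ephrin receptor, rose from 15.3 ± 1.67 to 25.3 ± 0.184 FPKM (limma adjusted p = 0.00038), and Ackr3, a chemokine scavenging receptor, rose by 0.21 (limma adjusted p = 0.0193). Cdkn1c, a cell cycle inhibitor, fell by 0.42 (limma adjusted p = 0.0049). Tcf7l2, a Wnt effector of the same list, fell by 0.43 (limma adjusted p = 0.00232). Of the co-repressors, Arid1a, a subunit of a chromatin remodelling complex, rose by 0.75 (limma adjusted p = 0.00567) and Ctbp1 by 0.18 (limma adjusted p = 0.0121). The paralogue Hic2 was lower by a margin that barely passed (log2 difference -0.15, limma adjusted p = 0.0486); that call was lost when any single library was left out. Mta1, Efna1 and E2f1 did not pass (limma adjusted p of 0.142, 0.26 and 0.261; Efna1 passed without BMP4 replicate 3), nor did Ctbp2 and Trp53. The Ctbp1 call was lost without palovarotene replicate 1, and that of Ackr3 without palovarotene replicate 1 or 3.

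Zfp703 (ENSMUSG00000085795.8), at chr8:26977325-26981461 on the plus strand, had by far the highest level of the 6 genes with BMP4. It was 43.1, 44.6 and 46.6 FPKM with BMP4 and 30.9, 30.6 and 30.2 FPKM with palovarotene. The lowest BMP4 library was 1.39 times the highest palovarotene library. The means were 44.7 ± 1.76 and 30.6 ± 0.330 FPKM, a log2 difference of -0.53 (SE 0.0331), and the gene stayed high in both groups, above 90.5% and 85.0% of the tested genes. An antisense gene, Gm45371, overlaps it and was not listed, so antisense fragments may be included. The full-length Zfp703-202, with 2 exons and 1782 coding bases, made up 81.4% ± 4.65 and 85.8% ± 0.915 of its listed transcripts. It was 45.3, 46.2 and 48.5 FPKM against 32.5, 32.1 and 31.8 FPKM. Zfp703-201 (381 coding bases) averaged 1.70 ± 0.284 and 0.901 ± 0.188 FPKM, and Zfp703-203, annotated with an incomplete end, 9.14 ± 3.14 and 4.42 ± 0.430 FPKM. All 3 transcripts were lower with palovarotene and none overlapped between groups.

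Of 14 genes of the Zfp703 list, 13 were tested; by limma 2 rose and 3 fell, with a median log2 difference of -0.07. The Groucho co-repressors, which proteins of this family bind, divided by member. Tle1 fell from 7.71 ± 0.390 to 4.05 ± 0.286 FPKM (log2 difference -0.79, limma adjusted p = 0.000104) and Tle2 fell by 0.50 (limma adjusted p = 0.00613). Tle3 rose from 4.29 ± 0.462 to 7.84 ± 0.156 FPKM (log2 difference 0.75, limma adjusted p = 0.00023), while Tle4 and Aes did not pass (Aes did without BMP4 replicate 1). Esr1, the estrogen receptor alpha, rose from 0.758 ± 0.0875 to 2.60 ± 0.170 FPKM (limma adjusted p = 2.62e-05). Tgfbr2, a receptor of TGF-beta, fell by 0.29 (limma adjusted p = 0.00468). The paralogue Zfp503 was 13.2 ± 0.503 and 12.4 ± 0.294 FPKM (limma adjusted p = 0.196). Partners known for human ZNF703 did not pass, with a limma adjusted p of 0.188 for Phb2, nor did Dcaf7, Hdac1 or Hdac2 (limma adjusted p = 0.119 for Hdac2). Cdh1 was not listed.

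Stk39 (ENSMUSG00000027030.15) is the longest of the 6 genes, 261824 bases at chr2:68210445-68472268 on the minus strand. The kinase gene was 1.35, 1.38 and 1.46 FPKM with BMP4 and 13.5, 13.9 and 14.1 FPKM with palovarotene. The lowest palovarotene library was 9.22 times the highest BMP4 library, and replicates were close together. The means were 1.39 ± 0.0607 and 13.8 ± 0.316 FPKM, a log2 difference of 2.63 (SE 0.0276). It moved from above 11.1% to above 66.7% of the tested genes. Its single listed transcript, Stk39-201, with 18 exons and 1668 coding bases, was 0.827, 1.12 and 1.45 FPKM against 17.2, 17.9 and 16.7 FPKM. The transcript ratio of 15.2 was larger than the gene ratio. The gene value was 0.781 to 1.63 times the transcript value, above it in every BMP4 library and below it in every palovarotene library. The RefSeq window of Stk39, chr2:68471932-68472231 on the minus strand, surrounds a start site 287 bases downstream of the start of Stk39-201. It is shown as a contrast to the windows above, since it holds none of the 4 half-sites; that says only that these letters are not in this stretch.
Stk39: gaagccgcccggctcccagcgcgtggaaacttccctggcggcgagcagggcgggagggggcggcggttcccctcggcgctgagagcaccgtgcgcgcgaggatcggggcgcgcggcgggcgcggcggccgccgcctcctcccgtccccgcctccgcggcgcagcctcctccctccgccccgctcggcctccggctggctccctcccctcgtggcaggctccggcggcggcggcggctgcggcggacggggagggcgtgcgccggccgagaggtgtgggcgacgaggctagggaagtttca
With a GC content of 80% and 49 CpG, it was above 99% of all windows in both respects.

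Of 19 genes around SPAK, the WNK kinases that activate it, its scaffolds and the cation chloride cotransporters it phosphorylates, 12 were tested; by limma 2 rose and 3 fell, with a median log2 difference of -0.03. Slc12a2, the sodium, potassium and chloride importer NKCC1, fell from 8.89 ± 0.506 to 5.5 ± 0.230 FPKM (log2 difference -0.60, limma adjusted p = 0.00024). Slc12a7 was 1.47 ± 0.210 and 1.57 ± 0.0660 FPKM (limma adjusted p = 0.524), and Slc12a4 did not pass. Upstream, Wnk4 rose by 0.22 at a low level (limma adjusted p = 0.0174), a call lost without BMP4 replicate 3 or palovarotene replicate 3, and Wnk1 did not pass. The scaffold gene Cab39l fell by 0.33 (limma adjusted p = 0.00203), as did Rell1, whose human product binds SPAK, also by 0.33 (limma adjusted p = 0.00681). The sister kinase Oxsr1 was 12.6 ± 0.898 and 11 ± 0.383 FPKM (limma adjusted p = 0.0604), and passed without BMP4 replicate 3. Cab39 did not pass (limma adjusted p = 0.0723), nor did Relt and Cul3.

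Usp53 (ENSMUSG00000039701.11) covers chr3:122931493-122984510 on the minus strand. It was 1.45, 1.61 and 1.48 FPKM with BMP4 and 15.8, 15.4 and 16.4 FPKM with palovarotene. The lowest palovarotene library was 9.56 times the highest BMP4 library. The means were 1.51 ± 0.0877 and 15.8 ± 0.488 FPKM, a log2 difference of 2.75 (SE 0.0376), from above 12.2% to above 70.4% of the tested genes. Usp53-201, with 16 exons and 3207 coding bases, made up 94.9% ± 0.350 and 94.1% ± 1.66 of the listed transcripts. It was 2.78, 3.15 and 2.88 FPKM against 30.2, 29.5 and 31.1 FPKM, 10.3 times as high. Most of the signal of both groups thus lay in the long coding transcript. The other 3 transcripts were low. Usp53-202 averaged 0.114 FPKM with BMP4 and 0.641 FPKM with palovarotene, and Usp53-205 averaged 0.0447 and 0.764 FPKM. Both of these were thus also higher with palovarotene. Usp53-208 was listed at 0 in all BMP4 libraries and in 1 palovarotene library. The gene value was 0.486 to 0.501 of the transcript sum in every library.

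**Figure D2:**
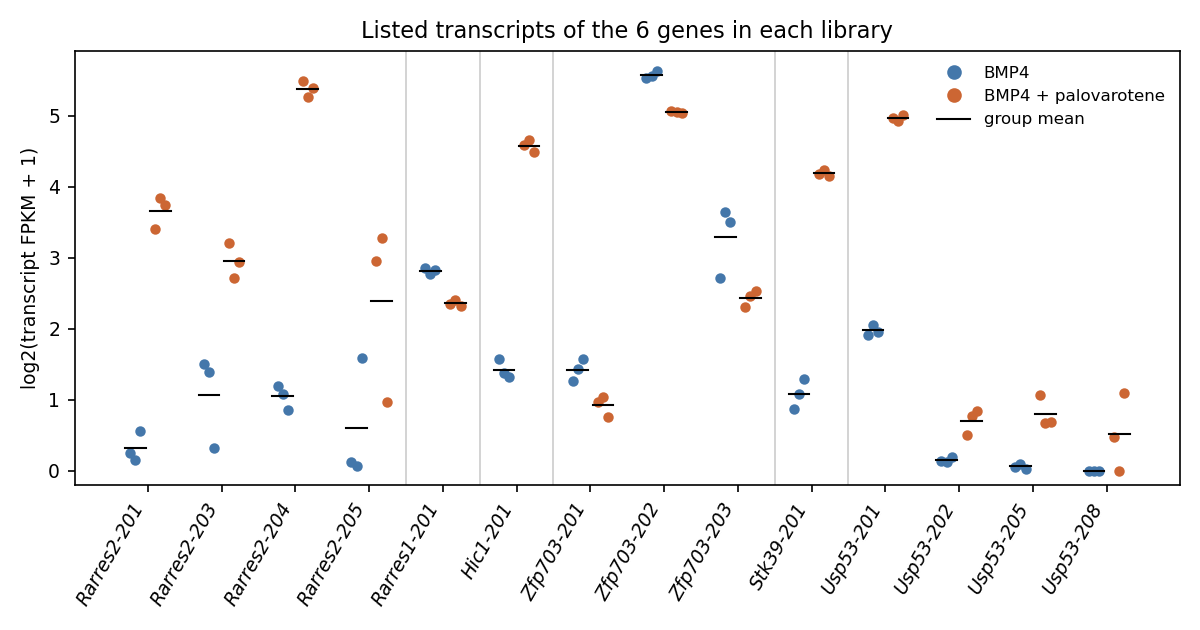
Log2(transcript FPKM + 1) for each of the 14 listed transcripts of the 6 genes, with 1 point per library, by group. The groups lie apart in 12 of them, and overlap in Rarres2-205 and Usp53-208. Nothing is read from this count, as the genes were chosen on this contrast.

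Over all 14 transcripts the groups did not overlap in 12. Of the 11 with a mean of at least 0.5 FPKM, 10 did not overlap, beside 34.4% of the 21101 transcripts of the table at that level; as the genes were chosen on this contrast, nothing is read from the count.

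The tight junction list around Usp53 held the gene with the largest log2 difference of all 6 lists. Of its 17 genes, 10 were tested; by limma 4 rose and 2 fell, with a median log2 difference of 0.08. F11r, the junctional adhesion molecule JAM-A, was 32.2, 30.1 and 28.8 FPKM with BMP4 and 137, 136 and 132 FPKM with palovarotene. It rose 4.45-fold, by 2.12 on the log2 scale (SE 0.0494, limma adjusted p = 3.76e-07). Cgnl1, which encodes paracingulin, a junction plaque protein, rose from 12 ± 0.519 to 27.4 ± 0.757 FPKM (limma adjusted p = 5.27e-06), and its relative Cgn rose by 0.51 (limma adjusted p = 0.000833). Tjp1, the gene of the scaffold ZO-1 to which USP53 binds in mouse, rose from 12.8 ± 1.34 to 17.1 ± 1.14 FPKM (limma adjusted p = 0.00842). The paralogue Usp54 was lower by a small margin, a log2 difference of -0.18 with a limma adjusted p of 0.0488. Its call was lost with a pseudocount of 0.1, under quantile or median-ratio scaling, and when any library but BMP4 replicate 3 was left out. The lower calls of this list went from 2 to 0 under either scaling and without any library but BMP4 replicate 3. Cldn12, Jam3 and Jam2 did not pass (limma adjusted p of 0.317, 0.467 and 0.64), nor did Ildr2. Krt19, an epithelial keratin and the only listed marker of the 6 epithelial ones, rose in the same libraries, by 1.59 (limma adjusted p = 8.48e-06). Epcam, Cdh1, Krt8, Krt18 and Cldn4 were not listed. The part of Krt19 in the junction genes was not tested. Tjp3, Marveld2, Marveld3, Ocln, Ildr1, Lsr and Cldn1 were not listed.

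**Figure D3:**
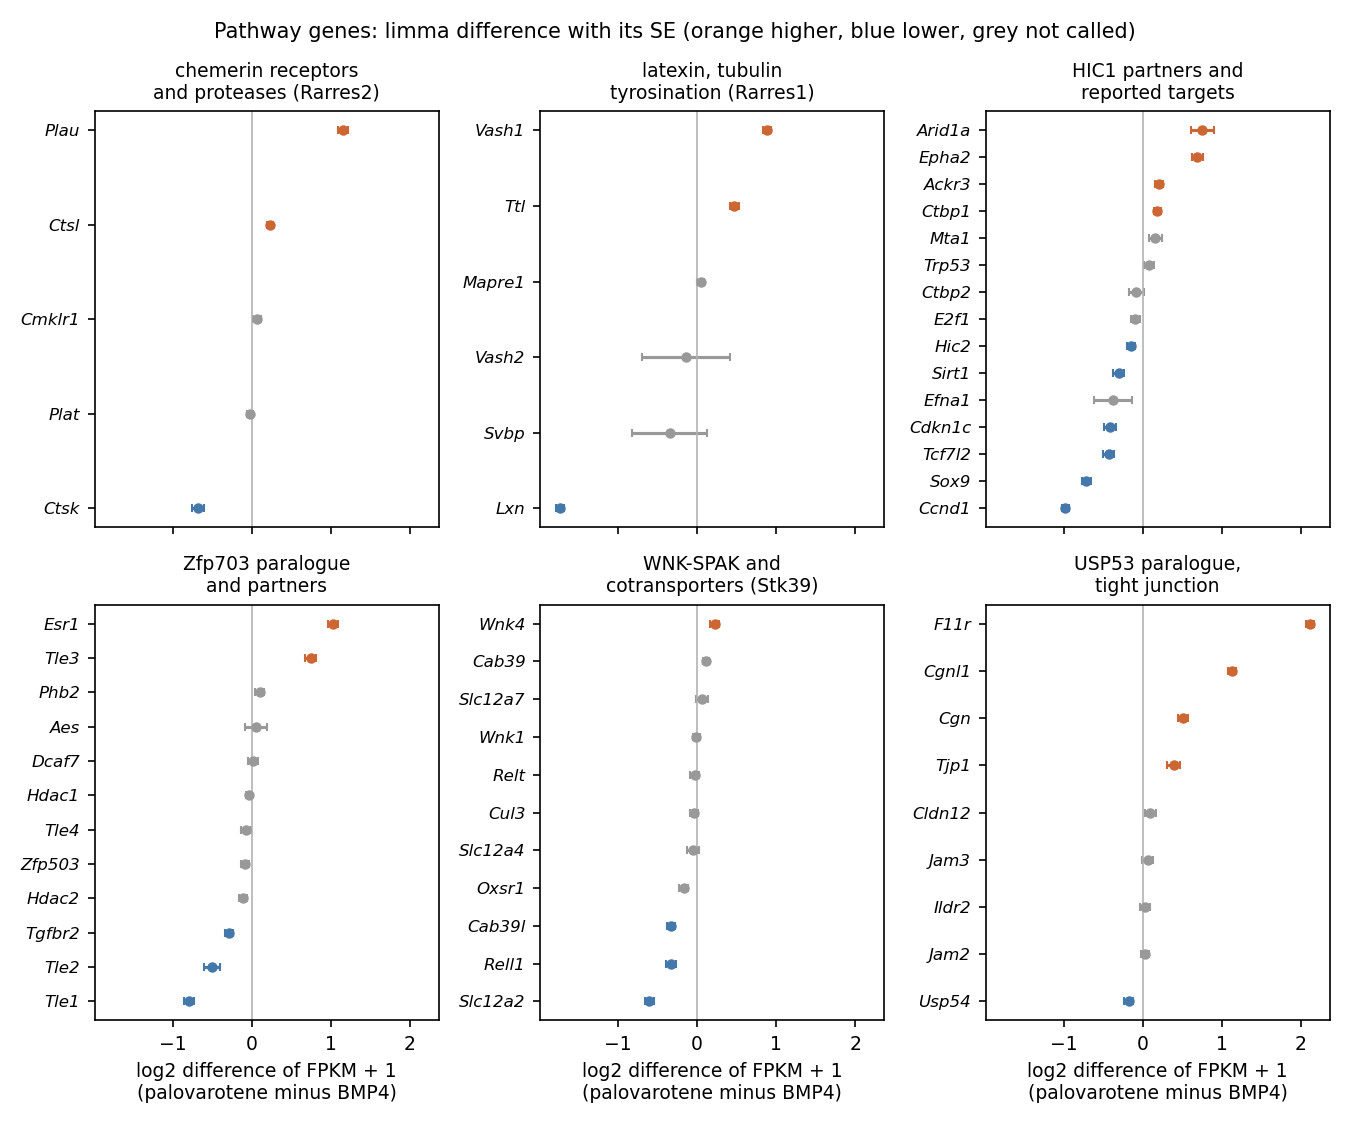
Log2 difference (palovarotene minus BMP4, limma on log2(FPKM + 1)) with its standard error for the tested genes of the 6 pathway lists that are reported by name. Orange marks genes called higher, blue genes called lower and grey genes that did not pass; F11r at 2.12 and Lxn at -1.74 lie farthest out.

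Over the 6 lists, 62 of 94 genes were tested, 16 rose, 17 fell and 29 did not pass. The 33 calls make 53.2% of the 62, against 43.0% of the table. The median log2 difference was -0.02, near that of all genes, and 5 genes changed by more than 1 on the log2 scale: Lxn, F11r, Cgnl1, Plau and Esr1. These lists were drawn up around genes already known to differ here, and no list was compared with the table by a test.

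The genes next to the 6 were taken by position alone. Within 100 kb lay 17 listed genes, of which 16 were tested. By limma 7 rose and 2 fell, with a median log2 difference of 0.21. The 9 calls make 56.25% of the 16, against 43.0% of the table, where 19.1% rose and 23.8% fell. The neighbours were not compared with the table by a test. Both neighbours that fell lie beside Rarres1. Lxn lies 15.0 kb downstream, inside Gfm1 on the other strand. Mfsd1, a lysosomal membrane protein gene 67.2 kb upstream, fell from 97.4 ± 3.80 to 59.1 ± 1.25 FPKM (log2 difference -0.71, limma adjusted p = 2.76e-05). Gfm1, a mitochondrial elongation factor gene that lies 2.44 kb from Rarres1, was 13.8 ± 0.858 and 13.5 ± 0.331 FPKM (limma adjusted p = 0.66), and Mlf1, at 79.0 kb, had a difference of -0.15 (limma adjusted p = 0.0768). Gfm1, whose body reaches from near Rarres1 to beyond Lxn, thus did not pass the test while Lxn fell.

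Around Hic1, 3 of 4 neighbours rose, each far less than Hic1. Smg6, a gene of nonsense-mediated decay whose end lies 0.117 kb from that of Hic1, rose by 0.34 (limma adjusted p = 0.0027). Ovca2, 6.42 kb upstream, rose by 0.29 (limma adjusted p = 0.0104), and Rtn4rl1, a Nogo receptor relative 24.3 kb upstream, rose from 7.21 ± 0.128 to 12.7 ± 0.693 FPKM (limma adjusted p = 5.81e-05). Dph1, which overlaps Ovca2 on the same strand so that their values are uncertain, did not pass (limma adjusted p = 0.298). Beside Rarres2, Atp6v0e2, a proton pump subunit gene 27.9 kb downstream, rose from 1.13 ± 0.139 to 2.69 ± 0.345 FPKM (limma adjusted p = 0.000406). Repin1, 21.1 kb upstream, rose by 0.25 (limma adjusted p = 0.00725), and Zfp775, 29.3 kb upstream, did not pass (log2 difference -0.21, limma adjusted p = 0.133). The neighbours of Rarres2 also changed by far less than Rarres2 itself. As Rarres2 and Hic1 were chosen on this contrast, nothing is read from these smaller differences.

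Beside Usp53, Pde5a, the phosphodiesterase of cyclic GMP 72.1 kb downstream, rose by 0.54 (limma adjusted p = 0.000402), and 1810037I17Rik, only 5.31 kb downstream, did not pass (log2 difference 0.08, limma adjusted p = 0.24). Synpo2, 92.0 kb upstream, averaged 0.285 and 0.538 FPKM and was below the level for testing. Erlin2, 41.8 kb downstream of Zfp703, rose by 0.34 (limma adjusted p = 0.00166), opposite to Zfp703, and Plpbp, at 61.1 kb, did not pass (log2 difference -0.30, limma adjusted p = 0.317). Without BMP4 replicate 2, Plpbp and Mlf1 passed as lower, which raised the count of lower neighbours from 2 to 4. The 1 neighbour of Stk39, B3galt1, did not pass (limma adjusted p = 0.192); 1 palovarotene library, at 2.53 FPKM, stood above the other two at 0.455 and 0.474.

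**Figure D4:**
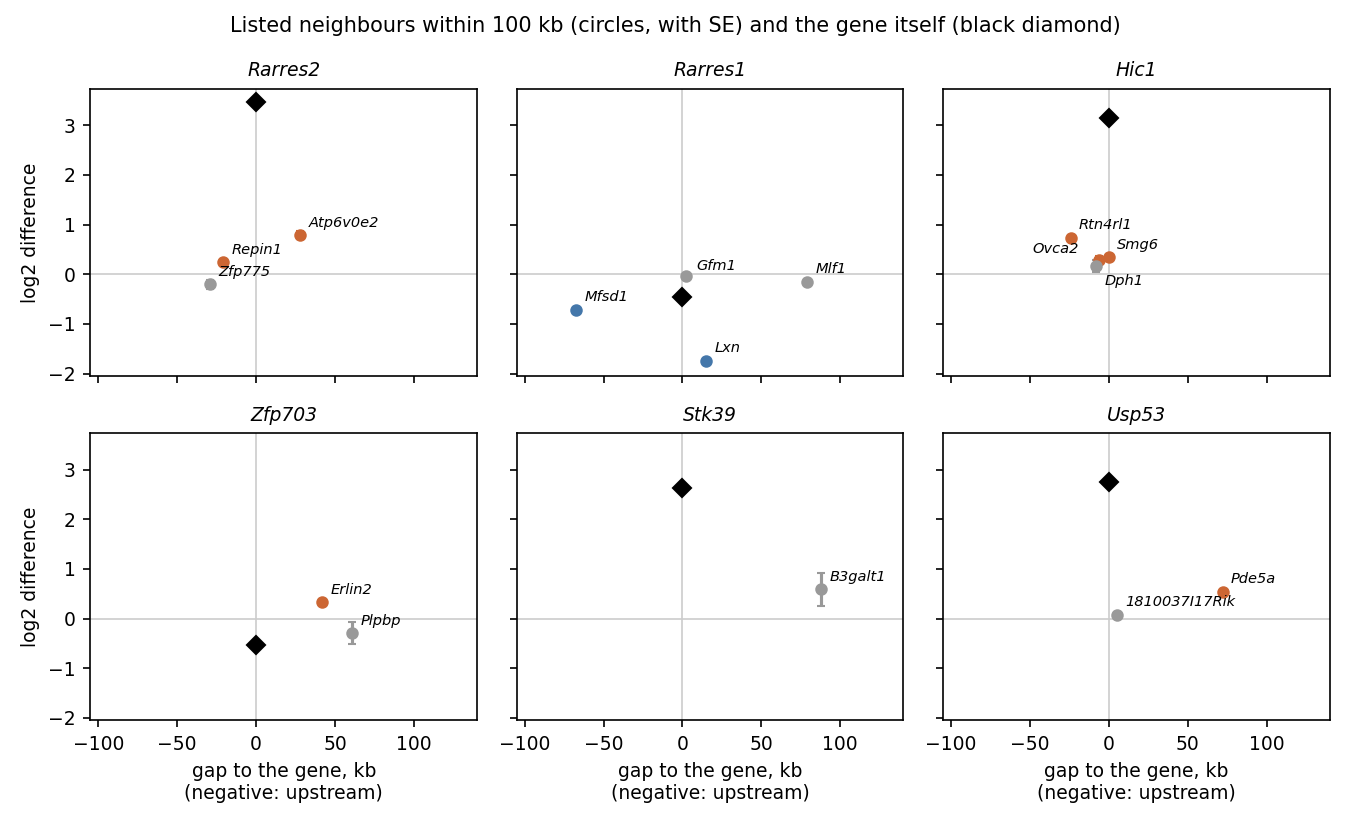
Log2 difference (palovarotene minus BMP4) of the neighbours within 100 kb against their gap in kb from the body of each of the 6 genes, upstream at negative values; the black diamond is the gene itself. Beside Rarres2, Hic1, Stk39 and Usp53 no neighbour comes near the gene's own difference, while Lxn beside Rarres1 lies farther from 0 than Rarres1. The 6 genes were chosen on this contrast, so nothing is read from the smaller differences of neighbours.

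Compared among themselves by gene FPKM, the order of levels with BMP4 was Zfp703, Rarres1, then Hic1, Usp53 and Stk39, and last Rarres2. The ranges of Hic1 (1.46 to 1.88), Usp53 (1.45 to 1.61) and Stk39 (1.35 to 1.46) all overlapped each other. With palovarotene the order was Zfp703, Hic1, Rarres2, Usp53, Stk39 and Rarres1, with overlapping ranges for Hic1 (20.8 to 23.6) and Rarres2 (19.8 to 21.5) only. Summing listed transcripts instead put Rarres2 first with palovarotene, at 64.7 ± 3.75 FPKM, ahead of Zfp703 at 37.5 ± 0.200 and Usp53 at 32.1 ± 1.41. Hic1 followed at 22.9 ± 1.38, Stk39 at 17.3 ± 0.566 and Rarres1 at 4.13 ± 0.15. The place of Rarres2 and Usp53 among the 6 therefore rests on which of the authors' tables is read.

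For the 4 genes with a difference of at least 1, the 3 genes most like each in pattern, the 6 genes themselves left out, were found by Euclidean distance over the 6 libraries, on log2(FPKM + 1) minus the gene's BMP4 mean; a smaller distance is more alike. Nearest to Rarres2 was Rarb, the retinoic acid receptor beta, at 0.144, which went from 0.0668 ± 0.00880 to 11.1 ± 0.331 FPKM. Ogn, a small leucine-rich proteoglycan of the matrix, followed at 0.334 and Sprr1a, a cornified envelope precursor, at 0.512. Nearest to Hic1 were Gabra3, a subunit of the GABA-A receptor, at 0.381, Tec, a tyrosine kinase, at 0.498, and Fndc1 at 0.568. Nearest to Usp53 was Chrdl1, a secreted BMP antagonist, at 0.0828, followed by the matrix protein gene Ecm1 at 0.217 and Fndc1 at 0.234. Stk39 had the same Chrdl1 nearest, at 0.172, then Fmo2, a flavin monooxygenase, at 0.244 and Ecm1 at 0.261. Among the 6 genes, Stk39 and Usp53 lay 0.225 from each other, nearer than Fmo2 to Stk39 or Fndc1 to Usp53, and Rarres2 and Hic1 lay 0.569 apart. Chrdl1 went from 0.0491 ± 0.00744 to 5.88 ± 0.245 FPKM, so a like pattern on this scale does not mean a like ratio: with the value of 1 added before the logarithm, low genes appear to differ by less.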

How the data were processed

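The authors deposited a gene and a transcript table of FPKM values for the 6 libraries, per the file headers; FastQC, cutadapt, HISAT2, StringTie (no versions) and the build GRCm38 are named in the submitters' processing notes, without their settings. Columns were matched to groups by the sample descriptions, and 0 columns of values were left unused. The higher group mean was never below 0.500 FPKM, so genes under that level are not analysed here. All rows are protein-coding, and each table has 1 line without values. Low values did not fall on steps of single fragments (27.0% to 30.0% whole within 0.1, where 20% is the share without steps), so depth stays unknown and counting intervals cannot be had. The groups were compared over genes averaging 0.5 FPKM or more by limma (version 3.58.1, run in R version 4.3.3), on log2(FPKM + 1) computed here from the deposited FPKM, with a variance trend and Benjamini-Hochberg adjustment at 0.05; the fit was tested on simulated data. Differences understate the change of low genes. Differences of the 6 genes and their transcripts carry a standard error from the group SDs and no p.

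The 6 genes, the gene lists and the neighbour rule were chosen with earlier results of these data known. Named were all called genes of the lists, up to 3 per list with the smallest p that were not called, all neighbours within 100 kb and the 3 most alike genes; other genes are named without values. Some genes of the lists are not reported here by name, but they stay in the fit, the counts and the medians. Coordinates are those of the tables, and for the 10289 gene identifiers found in GENCODE vM21 all coordinates were the same there. Promoter sequences are from RefSeq. Replicate numbers do not pair the libraries. Tried as alternatives were leaving out single libraries, a block for the replicate number, a fit without the variance trend, quantile and median-ratio scaling, a minimum mean of 5 FPKM, no minimum, and a pseudocount of 0.1.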

Additional observations from a re-analysis of the deposited data

How the results depend on the processing

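With a pseudocount of 0.1 in place of 1, the log2 differences were 4.30 for Rarres2, 3.71 for Hic1, 3.31 for Usp53, 3.22 for Stk39 and -0.54 for Rarres1, farther from 0 than with 1 by the construction of the scale. With a filter at a mean of 5 FPKM, fewer genes were tested and 21 pathway genes were called in place of 33, 9 of them lower in place of 17. With 1 library left out, 28 to 33 pathway genes were called (14 to 18 lower), and 2 to 4 neighbours were called lower. Same-numbered libraries of the 2 groups did not deviate together (correlations of -0.0640, -0.136 and -0.0207), so the numbers are not read as pairs; with the replicate block 27 pathway and 9 neighbour genes were called, and the calls of Hic2, Ctbp1, Ackr3, Wnk4 and Usp54 were among those lost. Of 77 tested genes of the lists and neighbours, markers left out, 41 were called and 0 reversed. The call was kept by 35 of them in every setting in which they were tested. That was 13 settings, or 12 for genes with a mean below 5 FPKM. The 6 calls lost in at least 1 setting include those of Hic2, Ctbp1, Ackr3, Wnk4 and Usp54. Another 6 genes were called in at least 1 setting only: Efna1, Aes, Oxsr1, Cab39, Mlf1 and Plpbp. The scale of FPKM leaves the depth unknown, so low values such as those of Rarres2-205 and Usp53-208 have no counting error.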
